A study of Homo sapiens with 18 samples.

Results

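Vimentin, thymosin β4 and the proteins that bind actin monomers are among the most abundant cytoskeletal proteins of animal cells. VIM encodes vimentin, the intermediate filament protein of mesenchymal and many blood cells. TMSB4X and TMSB10 encode β-thymosins, which hold actin monomers in reserve. ACTB and ACTG1 encode the cytoplasmic actins, PFN1 encodes profilin, which delivers actin monomers to growing filaments, and CFL1 encodes cofilin, which severs filaments. These 7 genes were taken by symbol from a table of 13051 transcripts, and 5 of the 7 had a row in it. ACTB and ACTG1 had no matched row and were not analysed here. Together the 5 genes held 447 of 447434 readthrough reads.

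A readthrough read is a read of nascent RNA that runs past the 3′ end of its gene. RNA polymerase II transcribes through the polyadenylation signal, the cleavage complex cuts the RNA a short distance behind the signal, and the polymerase is then released. RNA that is not yet cut at the time of harvest appears as a read that continues downstream. The table counts reads with a 3′ end more than 100 nt past the last exon of the transcript that ends farthest downstream. Reads in the gene body were not used here, so a lower count of readthrough reads may reflect less transcription or more cleavage, and these cannot be told apart.

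All 18 libraries came from K562, an erythroleukemia cell line whose growth is driven by the Bcr-Abl1 kinase, grown in suspension, with treated cells collected alongside untreated ones. Nascent RNA was taken from chromatin, depleted of polyadenylated RNA and ribosomal RNA, and read as PacBio long reads. There were 6 conditions with 3 biological replicates each. CTRL and CTRLim were untreated. KCl 45min was hyperosmotic shock with 110 mM KCl for 45 min, JTE 1h was 5 µM JTE-607, an inhibitor of the CPSF73 endonuclease of the cleavage complex, for 1 hour, and IM 1h and IM 18h were 1 µM imatinib, an inhibitor of Bcr-Abl1, for 1 or 18 hours. All results therefore describe 1 cell line, and in such bulk samples fewer cells with an RNA and less of that RNA per cell cannot be told apart.

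Library reads, without polyadenylated reads and splicing intermediates, numbered 229855 to 1349556, of which 8422 to 57982 were readthrough reads. Levels below are readthrough reads per 1000000 library reads (RPM). CTRL, KCl 45min and JTE 1h had 40.5% to 44.1% of their raw reads mapped, and CTRLim, IM 1h and IM 18h had 84.3% to 91.6%, so that treatment and library set cannot be told apart in any comparison across these sets. In JTE 1h replicate 1, 3.06% of the library reads were readthrough reads, against 5.40% and 5.05% in the other replicates. Of the median read lengths that the study lists, that of JTE 1h replicate 1 was the shortest. Reads of CTRL replicate 3 were longer than those of CTRL replicates 1 and 2, and no lengths are listed for CTRLim. Whether read length shaped the counts was not tested. CTRLim replicate 1 was the library with the fewest reads. CTRLim replicates 2 and 3 differed by about as much as sampling noise alone gives (chi-square per degree of freedom 1.03, against 1.32 and 1.40 for the other CTRLim pairs), so results that use CTRLim are also given with these libraries counted as 1 sample. All IM 1h pairs were as close (0.977 to 1.06). The IM 1h libraries are labelled as biological replicates and were kept as 3 samples, and no alternative was run for them. Whether they are independent was not tested, which limits every p-value that uses IM 1h. Erythroid genes had 7798 readthrough reads (9 of 10 markers with a row, 71.1 to 1273 RPM per library), most of them from the globin genes HBG1 (4159) and HBE1 (2768), with 38 from GATA1 and 14 from ALAS2, and lymphoid and myeloid markers had 3 reads (3 of 7 with a row, 0 to 1.90 RPM).

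The annotated ends of these genes are shown first, because a readthrough read is defined by a 3′ end more than 100 nt past them. Each of the 4 genes below carried the canonical polyadenylation hexamer AATAAA shortly before its counted end, printed in capitals in 30 bases of its last exon (GRCh38, 5′ to 3′ on the strand of the gene).
VIM: tggttctgcttcAATAAAtctttggaaaaa
TMSB4X: ttttaatatgcaAATAAAaagtttaaaaac
TMSB10: atgaataatgaaAATAAAacacacctcgtg
PFN1: tttttttttctgAATAAAaaagattctact
The windows lie at chr10:17237561-17237590 (+), chrX:12977195-12977224 (+), chr2:84906639-84906668 (+) and chr17:4945657-4945686 (−). The hexamer ended 15 nt before the counted end in VIM, TMSB4X and TMSB10 and 17 nt before it in PFN1. Of 12704 matched ends in the table, 60.4% held AATAAA and 74.4% held AATAAA or the variant ATTAAA in the last 50 nt of the sense strand, so the motif is common and does not set these genes apart. The 100 nt after the VIM end held 46% T, above the upper quartile of all ends (median 32%, quartiles 26% and 38%), while those after TMSB4X, TMSB10 and PFN1 held 28%, 23% and 29%. G and T together made up 60% to 67% of these stretches, above the upper quartile of 59% of all ends.

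The rows differ in how cleanly they report on their gene. VIM was counted on ENST00000487938, a transcript of 8 exons classed as a target of nonsense-mediated decay, whose last exon (chr10:17237230-17237593) ends where the main VIM transcript ends. TMSB4X was counted on ENST00000380635, whose last exon (chrX:12976777-12977227) ends 4 nt past the main end. No other gene lies within 2000 nt downstream of either, and the next gene on the same strand is 149 kb (VIM) or 109 kb (TMSB4X) away. PFN1 was counted on ENST00000225655 (last exon chr17:4945652-4945997), and RNF167 on the opposite strand ends 430 nt downstream of it. TMSB10 was counted on ENST00000233143 (last exon chr2:84906389-84906671) and its end lies inside TRABD2A on the opposite strand. Whether the counting used strand is not given in the sources used here, so reads of PFN1 and TMSB10 are uncertain in this respect. For CFL1 the row was ENST00000527752, whose end (last exon chr11:65823022-65823266) lies 31651 nt past the end of the main CFL1 transcript, so this row does not report on the main CFL1 end.

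Read numbers set what could be tested. TMSB4X had 166 readthrough reads in 18 of 18 libraries, VIM 155 in 16, PFN1 109 in 17, TMSB10 15 in 7, and CFL1 2 in 2, against a median of 10 reads per transcript in the table. VIM, TMSB4X and PFN1 reached the minimum of 30 reads in at least 1 comparison. TMSB10 and CFL1 never did. Single libraries rest on few reads, for example 5 VIM reads in IM 18h replicate 1, which is 5.32 RPM with a Wilson 95% interval of 2.27 to 12.4 RPM. Such intervals cover counting error only.

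VIM readthrough was high in untreated cells of the imatinib set, did not differ past its error after 1 hour of imatinib, and fell after 18 hours. The CTRLim libraries had 5, 20 and 17 VIM reads (21.8, 37.0 and 34.5 RPM). IM 1h had 19, 8 and 28 reads (28.2, 13.96 and 34.9 RPM). IM 18h had 5, 8 and 4 reads (5.32, 6.26 and 2.96 RPM). Each of the 3 IM 18h libraries lay below each CTRLim and each IM 1h library, although each IM 18h library held more reads than any of those, while CTRLim and IM 1h overlapped. The mean (SD, n = 3) was 31.1 ± 8.20 RPM for CTRLim, 25.7 ± 10.7 for IM 1h and 4.85 ± 1.70 for IM 18h.

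The fall of VIM at 18 hours passed the test against both references. Against CTRLim, VIM fell by 2.75 on the log2 scale (SE 0.415, 6.71-fold lower, adjusted p = 4.62e-06, edgeR quasi-likelihood test with Benjamini-Hochberg adjustment over 1386 genes). In this comparison 14.1% of all genes tested were called, 8.95% were called lower, and 18.4% had IM 18h wholly below CTRLim. Against IM 1h, VIM fell by 2.44 (SE 0.402, 5.44-fold lower, edgeR adjusted p = 8.35e-07), where 18.3% of 1720 genes were called, 14.1% called lower and 26.3% wholly below. With TMM scaling, which moved the median log2 fold change of all genes from -0.30 to -0.01 and the calls from 72 higher and 243 lower to 111 higher and 92 lower, VIM fell by 2.15 (edgeR adjusted p = 5.30e-05). With CTRLim replicates 2 and 3 as 1 sample (CTRLim 28.8 ± 9.92 RPM, SD, n = 2), the edgeR log2 fold change was -2.73 and the adjusted p was 7.52e-05. At 1 hour the log2 fold change was -0.31 (SE 0.321, edgeR adjusted p = 0.708, 95% interval -0.94 to 0.32), so a fall as large as that at 18 hours lay outside the interval.

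**Figure D1:**
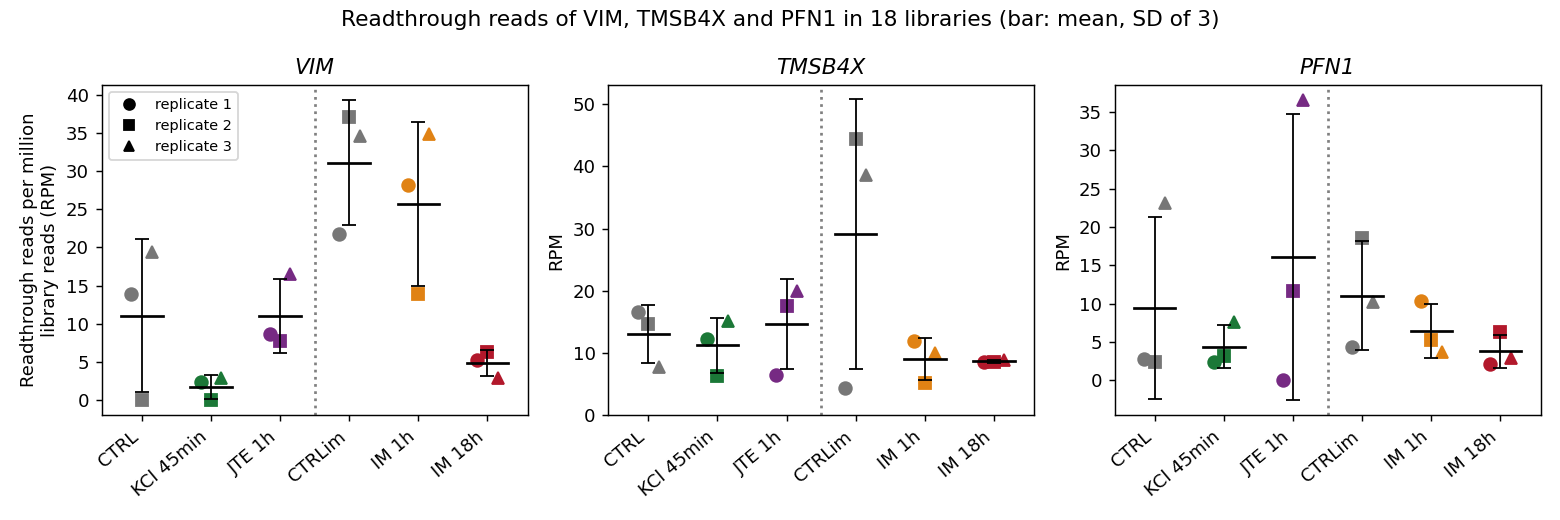
Readthrough reads per 1000000 library reads (y axis) of VIM, TMSB4X and PFN1 in each of 18 libraries, by condition (x axis), with the mean and SD of 3 replicates as bars; the dotted line parts the library sets. VIM lies at 2.96 to 6.26 RPM in IM 18h, below every CTRLim and IM 1h library, and CTRLim replicate 1 stands apart from the other CTRLim libraries for TMSB4X.

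TMSB4X fell at both imatinib times, already at 1 hour, but 1 control library, with 1 TMSB4X read, was not above the imatinib libraries. The CTRLim libraries had 1, 24 and 19 TMSB4X reads (4.35, 44.4 and 38.6 RPM). IM 1h had 8, 3 and 8 reads (11.9, 5.23 and 9.97 RPM), and IM 18h had 8, 11 and 12 reads (8.51, 8.61 and 8.89 RPM). CTRLim replicate 1 lay below every imatinib library and the other CTRLim libraries lay above all of them, so the groups overlapped. The mean (SD, n = 3) was 29.1 ± 21.7 RPM for CTRLim, 9.03 ± 3.42 for IM 1h and 8.67 ± 0.197 for IM 18h.

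Both differences of TMSB4X from CTRLim were called. At 1 hour TMSB4X fell by 1.87 on the log2 scale (SE 0.395, 3.65-fold lower, edgeR adjusted p = 3.28e-04). This was 1 of 15 genes called of 988 tested (1.52%), 13 of them lower (1.32%; 17 of 17 lower with TMM scaling), and the call rested on CTRLim replicate 2, without which the log2 fold change was -1.53 and the edgeR adjusted p was 0.119. DESeq2 gave a log2 fold change of -1.98 with an adjusted p of 0.0819. At 18 hours it fell by 1.93 (SE 0.409, 3.82-fold lower, edgeR adjusted p = 6.54e-04), and this call was kept without each library in turn. Between IM 18h and IM 1h the log2 fold change was -0.09 (SE 0.445, edgeR adjusted p = 0.908, 95% interval -0.96 to 0.78). With CTRLim replicates 2 and 3 as 1 sample (CTRLim 22.9 ± 26.3 RPM, SD, n = 2), the edgeR adjusted p was 8.64e-04 at 1 hour and 0.00545 at 18 hours.

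The untreated group used as control decided part of these results. Against CTRL, which belongs to the other library set, TMSB4X had log2 fold changes of -0.54 at 1 hour (edgeR adjusted p = 0.520) and -0.63 at 18 hours (edgeR adjusted p = 0.370), and neither was called. VIM had 27 reads in CTRL and IM 18h together, too few for the test. Against all 6 untreated libraries VIM at 18 hours was lower by a log2 fold change of -2.15 (edgeR adjusted p = 0.0143), and TMSB4X had -1.34 (adjusted p = 0.310) and -1.42 (adjusted p = 0.0567) at 1 and 18 hours.

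PFN1 had fewer reads and no call after imatinib. CTRLim had 1, 10 and 5 reads (4.35, 18.5 and 10.2 RPM), IM 1h 7, 3 and 3 (10.4, 5.23 and 3.74 RPM) and IM 18h 2, 8 and 4 (2.13, 6.26 and 2.96 RPM). The groups overlapped. Means were 11.01 ± 7.12, 6.46 ± 3.50 and 3.79 ± 2.19 RPM (SD, n = 3). At 18 hours the log2 fold change against CTRLim was -1.64 (SE 0.583, edgeR adjusted p = 0.0503), and it was -1.62 (adjusted p = 0.0699) with CTRLim replicates 2 and 3 as 1 sample. At 1 hour the 29 reads in both groups fell short of the minimum. In all, 1 of 2 members tested was called at 1 hour (1.52% of all genes) and 2 of 3 at 18 hours (14.1% of all genes).

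TMSB10 was not detected after imatinib. No read was found in the 3 IM 1h and 3 IM 18h libraries, which allows up to 1.46 RPM in IM 1h and 0.841 RPM in IM 18h (3 reads over the group). CTRLim had 0, 1 and 1 reads, which is under the same limit of 3 reads, so a difference was not detectable at this depth. In the other set, CTRL had 2, 0 and 0 reads, KCl 45min 0, 0 and 4, and JTE 1h 2, 1 and 4. JTE 1h was the condition in which all 3 libraries held a TMSB10 read (3.26 ± 1.22 RPM, SD, n = 3). CFL1 had 1 read each in KCl 45min replicates 2 and 3 and none elsewhere. With no TMSB10 read in 11 of 18 libraries, the ratio of TMSB10 to TMSB4X reads mostly follows TMSB4X alone and is not given as a comparison. The ratio of ACTG1 to ACTB could not be formed.

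**Figure D2:**
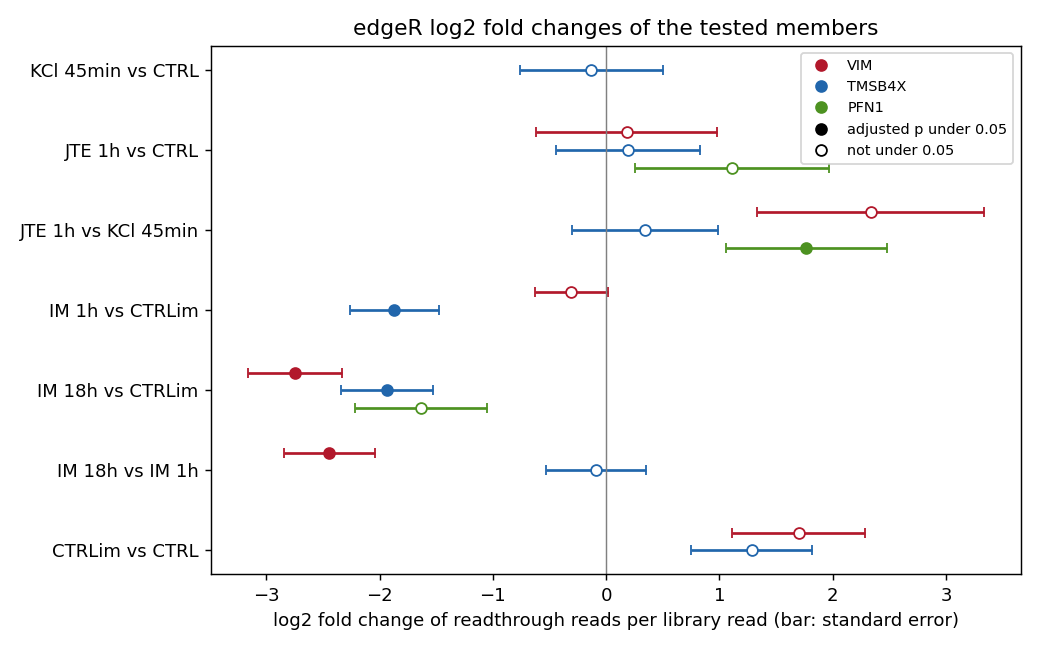
Log2 fold change of readthrough reads per library read (x axis) with its standard error, from edgeR, for VIM, TMSB4X and PFN1 in 7 comparisons (y axis); filled points have an adjusted p under 0.05, and a gene with fewer than 30 reads in a comparison has no point. VIM is filled at 18 hours against both references, TMSB4X at 1 and 18 hours against CTRLim, and PFN1 in JTE 1h against KCl 45min.

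The balance between VIM and TMSB4X within a library does not depend on the library total. With 0.5 added to each count, the log2 ratio of VIM to TMSB4X reads was 1.87, -0.26 and -0.16 in CTRLim. It was 1.20, 1.28 and 1.75 in IM 1h, and -0.63, -0.44 and -1.47 in IM 18h. All IM 1h libraries held more VIM than TMSB4X reads and all IM 18h libraries held fewer, and these groups did not overlap. The mean ratio was 2.25 lower at 18 hours than at 1 hour (1.41 ± 0.295 and -0.85 ± 0.552, SD, n = 3, exact permutation test, two-sided, p = 0.1, adjusted p = 0.233 over 7 comparisons), the smallest raw p the design allows. Against CTRLim the ratio was 1.33 lower at 18 hours (exact permutation p = 0.1, adjusted p = 0.233) and 0.92 higher at 1 hour (exact permutation p = 0.4, adjusted p = 0.56). CTRLim replicate 1, with 5 VIM reads against 1 of TMSB4X, weighed on both values, and without it the ratio was 0.64 lower at 18 hours and 1.61 higher at 1 hour, while without CTRLim replicate 2 or 3 it was 0.55 or 0.60 higher at 1 hour. In the other set the mean ratio was lowest in KCl 45min (-1.87, -2.32 and -2.24). CTRL had -0.24, -3.7 and 1.14 and overlapped KCl 45min (exact permutation p = 0.4, adjusted p = 0.56). In JTE 1h the mean ratio was 1.82 higher than in KCl 45min with no overlap (exact permutation p = 0.1, adjusted p = 0.233). This ratio was added after the data were seen.

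**Figure D3:**
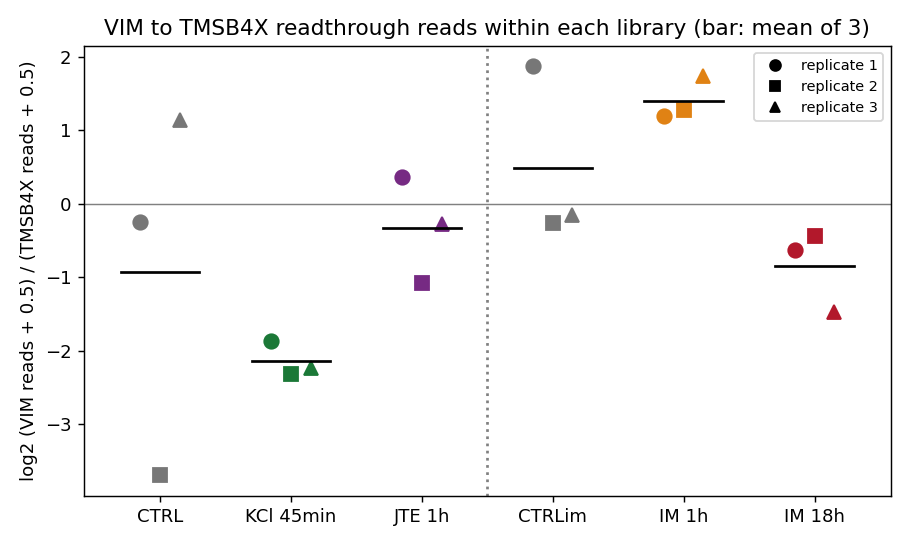
Log2 ratio of VIM to TMSB4X readthrough reads with 0.5 added to each (y axis) in each library by condition (x axis), with the mean of 3 replicates as a bar and a dotted line between the library sets. The IM 1h libraries lie between 1.20 and 1.75 and the IM 18h libraries between -1.47 and -0.44.

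JTE-607, which acts on the cleavage enzyme itself, did not raise the readthrough reads of these genes over CTRL past their error. VIM had 5, 0 and 5 reads in CTRL (13.9, 0 and 19.3 RPM) and 4, 4 and 19 in JTE 1h (8.71, 7.78 and 16.6 RPM). TMSB4X had 6, 6 and 2 reads in CTRL (16.6, 14.6 and 7.73 RPM) and 3, 9 and 23 in JTE 1h (6.53, 17.5 and 20.04 RPM). Both genes overlapped between the groups. PFN1 had 1, 1 and 6 reads in CTRL (2.77, 2.44 and 23.2 RPM) and 0, 6 and 42 in JTE 1h (0, 11.7 and 36.6 RPM), with JTE 1h replicate 1 the lowest and replicate 3 the highest of all these libraries. The log2 fold changes were 0.18 for VIM (95% interval -1.39 to 1.75, edgeR adjusted p = 0.944), 0.20 for TMSB4X (-1.05 to 1.44, adjusted p = 0.923) and 1.11 for PFN1 (-0.57 to 2.79, adjusted p = 0.648). The PFN1 value turned on single libraries and was 2.70 without CTRL replicate 3, 1.71 without JTE 1h replicate 1, 0.66 without CTRL replicate 1 and 0.59 without CTRL replicate 2, none of them called. None of the 3 was called by edgeR or DESeq2 and none had an unadjusted p under 0.05, in a comparison in which 1 of 969 genes was called (0.103%), or 69 genes without JTE 1h replicate 1. The median log2 fold change of all genes tested was 0.49, above those of VIM and TMSB4X, and with TMM scaling the values of VIM and TMSB4X lay below 0 (-0.24 and -0.30, edgeR adjusted p = 0.985 and 0.929).

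VIM reads were few after hyperosmotic shock, and also in CTRL. KCl 45min had 1, 0 and 3 VIM reads (2.44, 0 and 2.84 RPM), against 5, 0 and 5 in CTRL (13.9, 0 and 19.3 RPM), and the groups overlapped. The KCl 45min mean (1.76 ± 1.54 RPM, SD, n = 3) was the lowest of the 6 conditions, which span both library sets. With 14 reads in KCl 45min and CTRL together VIM fell short of the minimum, and with a minimum of 10 reads its log2 fold change was -2.10 (SE 0.971, edgeR adjusted p = 0.146). TMSB4X had 5, 2 and 16 reads (12.2, 6.37 and 15.2 RPM), within the range of CTRL apart from the lowest library. Its log2 fold change was -0.13 (SE 0.629, 95% interval -1.36 to 1.10, edgeR adjusted p = 0.899). PFN1 had 1, 1 and 8 reads (2.44, 3.19 and 7.58 RPM) and was not tested. By edgeR 25.1% of 378 genes tested were called in this comparison and 20.9% were called lower (16 higher and 79 lower, 25 and 50 with TMM scaling), but 0 of 1 member tested, with 0 at an unadjusted p under 0.05 and 0 by DESeq2.

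Between JTE 1h and KCl 45min, VIM was higher in every JTE library and PFN1 was called. VIM had a log2 fold change of 2.33 (SE 0.999, edgeR adjusted p = 0.0543), just short of the threshold, with no overlap between the groups (37.7% of all genes tested had JTE 1h wholly above KCl 45min). With the replicate number as a block, VIM passed (log2 fold change 2.47, edgeR adjusted p = 0.0186). It also passed with all 18 libraries in one fit (2.35, edgeR adjusted p = 0.00943). Under the other 8 of 10 alternatives VIM did not pass. Its log2 fold change was 1.28 with TMM scaling (edgeR adjusted p = 0.330) and 1.40 with the total of readthrough reads (edgeR adjusted p = 0.277). With DESeq2 it was 1.54 (adjusted p = 0.527). PFN1 rose by 1.77 on the log2 scale (SE 0.713, 3.403-fold higher, edgeR adjusted p = 0.0397, 0.0484 with the replicate block), although JTE 1h replicate 1 held no PFN1 read and the groups overlapped. TMSB4X had 0.34 (SE 0.641, edgeR adjusted p = 0.701). In this comparison 35.3% of 999 genes were called and 34.1% were called higher in JTE 1h (341 higher and 12 lower, 114 and 50 with TMM scaling), and the median log2 fold change was 1.21 (0.18 with TMM scaling), so 1 of 3 members called is near that share. The PFN1 call was lost with DESeq2 (log2 fold change 0.73, adjusted p = 0.787) and when the total of readthrough reads set the scale (0.77, edgeR adjusted p = 0.533).

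The untreated groups themselves stood apart. Each CTRLim library had more VIM than each CTRL library (31.1 ± 8.20 against 11.1 ± 9.97 RPM, SD, n = 3), as had 25.8% of the genes tested. The log2 fold change was 1.70 for VIM (SE 0.587, edgeR adjusted p = 0.0655) and 1.29 for TMSB4X (SE 0.536, edgeR adjusted p = 0.113). With CTRLim replicates 2 and 3 as 1 sample these were 1.63 (edgeR adjusted p = 0.193) and 1.15 (edgeR adjusted p = 0.296). By edgeR 10.6% of 472 genes were called (48 higher and 2 lower, 23 and 24 with TMM scaling), and 0 of 2 members. Both members had an unadjusted p under 0.05, as had 138 of the 472 genes, and DESeq2 called 0 of the 2 members. These untreated groups come from different sets.

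In the order of mean levels, VIM ran from CTRLim through IM 1h, CTRL, JTE 1h and IM 18h to KCl 45min. Neighbours from CTRLim to JTE 1h overlapped. JTE 1h, IM 18h and KCl 45min lay apart in these libraries, but across the library sets, and the lowest IM 18h library (2.96 RPM from 4 reads, Wilson 95% interval 1.15 to 7.62) and the highest KCl 45min library (2.84 RPM from 3 reads, 0.967 to 8.36) did not differ beyond counting error. TMSB4X ran from CTRLim through JTE 1h, CTRL, KCl 45min and IM 1h to IM 18h, and every neighbouring pair overlapped. PFN1 ran from JTE 1h through CTRLim, CTRL, IM 1h and KCl 45min to IM 18h, also with overlap of every neighbouring pair.

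Whether JTE-607 and imatinib at 1 hour acted differently on these genes was tested as a difference of differences, each drug against its own control. The difference was 0.56 for VIM (SE 0.795, edgeR adjusted p = 0.975), 2.00 for TMSB4X (SE 0.786, edgeR adjusted p = 0.477) and 2.15 for PFN1 (SE 0.997, edgeR adjusted p = 0.575), all on the log2 scale and all higher for JTE 1h. None was called by edgeR or DESeq2, and 5 of 2175 genes were called in all (0.23%). TMSB4X and PFN1 had an unadjusted p under 0.05, as had 166 of the 2175 genes. Without JTE 1h replicate 1 the difference for TMSB4X was 2.33 and passed (edgeR adjusted p = 0.0456). For PFN1 it ranged from 0.52 without JTE 1h replicate 3 to 3.71 without CTRL replicate 3 and was never called.

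The rest of the cytoskeleton was followed in 7 lists of 102 genes, 93 of them with a row, among them actin nucleation, monomer binding and severing, bundling and membrane linkage, tropomyosin and myosin, intermediate filaments with lamins, and tubulins. After 18 hours of imatinib 3 of 19 tested genes fell against CTRLim, 0 rose, and 16 did not pass, where 14.1% of all genes tested were called and 8.95% called lower. WDR1, which aids cofilin in taking filaments apart, had 6, 16 and 9 reads in CTRLim and 12, 12 and 8 in the deeper IM 18h libraries (24.7 ± 5.81 and 9.36 ± 3.42 RPM, SD, n = 3) and fell by 1.43 on the log2 scale (edgeR adjusted p = 0.0114). SPTBN1, a β-spectrin of the membrane skeleton, had 3, 8 and 7 reads against 3, 4 and 8 and fell by 1.73 (edgeR adjusted p = 0.0216). TUBA1B, an α-tubulin, had 25, 54 and 30 reads against 28, 73 and 74 and fell by 0.87 (edgeR adjusted p = 0.0220). Across the 19 genes the median log2 fold change was -0.45, with 15 below 0, against -0.01 over all genes tested. DESeq2 called 0 of these 19, and edgeR called 0 of them without CTRLim replicate 2.

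Between the imatinib times, 4 of 20 tested list genes fell at 18 hours and 0 rose, near the 18.3% of all genes called and 14.1% called lower. TUBA1B fell by 1.00 (edgeR adjusted p = 1.83e-05) from 96.1 ± 9.43 to 47.3 ± 15.2 RPM (SD, n = 3). MYL12A, a regulatory light chain of non-muscle myosin, fell by 1.43 (edgeR adjusted p = 0.00907), WDR1 fell by 1.14 (edgeR adjusted p = 0.0219) and TAGLN2, a transgelin that binds actin filaments, fell by 1.51 (edgeR adjusted p = 0.0359). All 4 had no overlap between the groups, as had 26.3% of all genes in this direction. The list median was -0.42 against -0.30 over all genes tested. When each library was left out, edgeR called 2 to 4 list genes, and DESeq2 called 0. With TMM scaling 2 were called, TUBA1B lower (-0.71, edgeR adjusted p = 0.00709) and ARPC4, a subunit of the ARP2/3 complex, higher (0.62, edgeR adjusted p = 0.0207). At 1 hour against CTRLim, 0 of 18 were called by edgeR or DESeq2, and 9 lay above and 9 below 0. Of these 18, 1 had an unadjusted p under 0.05 (131 of all 988 genes tested).

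**Figure D4:**
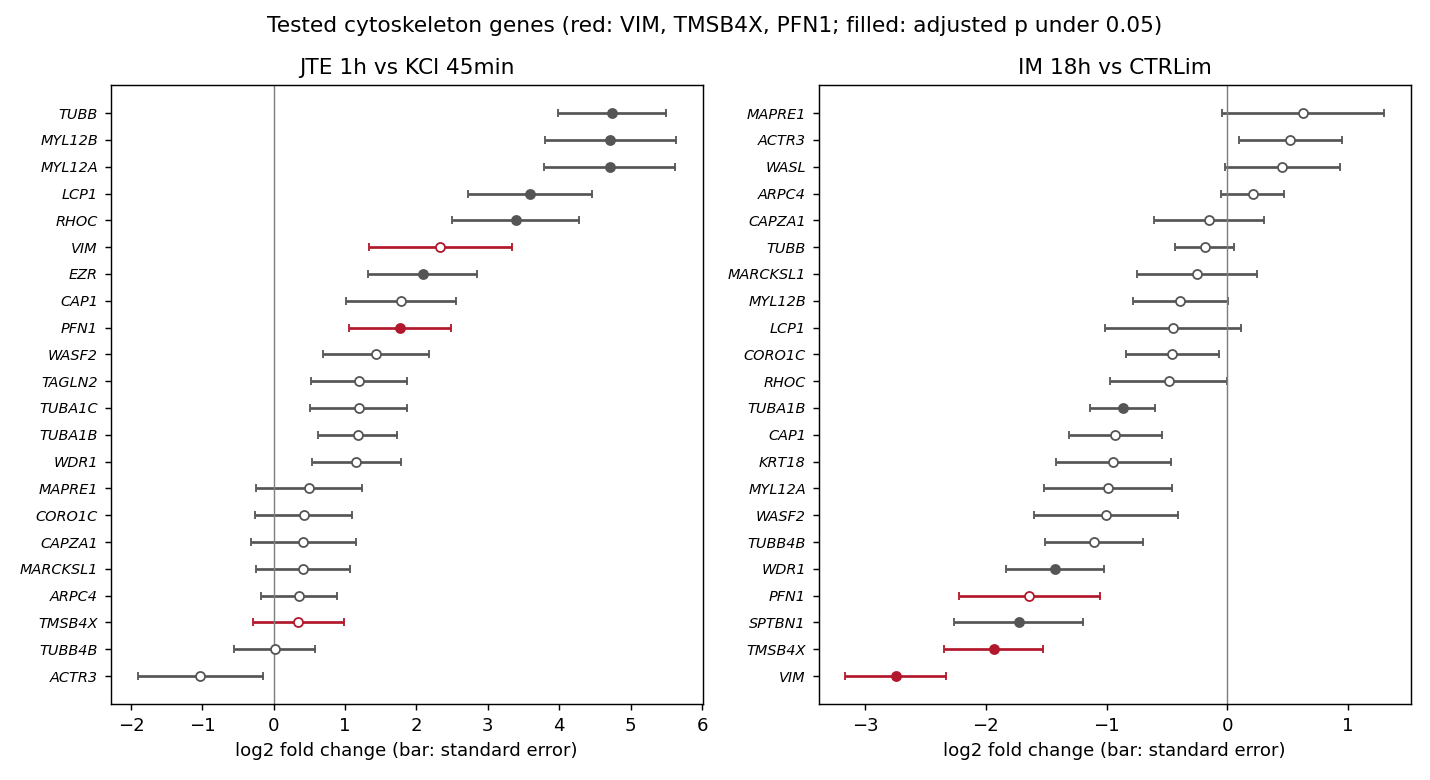
Log2 fold change with its standard error (x axis) of each tested cytoskeleton gene (y axis, sorted) in JTE 1h against KCl 45min and in IM 18h against CTRLim, from edgeR; VIM, TMSB4X and PFN1 are red and filled points have an adjusted p under 0.05. In IM 18h against CTRLim VIM and TMSB4X have the lowest values of the genes shown.

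Against KCl 45min, JTE 1h had 6 of 19 tested list genes higher and 0 lower, near the 34.1% of all genes called higher. TUBB, a β-tubulin, had 19, 62 and 116 reads in JTE 1h and 3, 1 and 1 in KCl 45min and rose by 4.74 on the log2 scale (edgeR adjusted p = 6.46e-08). The myosin light chain genes MYL12B and MYL12A, LCP1, which encodes the leukocyte actin bundler L-plastin, and RHOC, which encodes a small GTPase, rose by 4.72, 4.71, 3.59 and 3.39 (edgeR adjusted p 1.22e-05 to 0.00108). These 5 did not overlap between the groups, as did not 37.7% of all genes in this direction. EZR, which links actin to the plasma membrane, rose by 2.09 with overlap between the groups (edgeR adjusted p = 0.0221). The list median was 1.19, against 1.21 over all genes, and the number called was 7 with the replicate block, 3 with DESeq2, 3 with TMM scaling (TUBB, MYL12B and MYL12A in both) and 3 to 12 when a library was left out, 3 without JTE 1h replicate 2 or 3 and 12 without replicate 1. TUBB was also the 1 gene of 6 tested called in KCl 45min against CTRL, near the 25.1% of all genes called and 20.9% called lower. Its log2 fold change there was -3.906, from 18, 19 and 13 reads in CTRL (edgeR adjusted p = 6.14e-06). Both comparisons of TUBB share the KCl 45min libraries. In JTE 1h against CTRL 0 of 18 list genes were called by edgeR or DESeq2, and 4 were called without JTE 1h replicate 1 (69 over all genes). Of the 18, 3 had an unadjusted p under 0.05 (108 of all 969 genes tested). 17 lay above 0, with a list median of 0.75 against 0.49 over all genes tested. In CTRLim against CTRL, 0 of 9 were called by edgeR or DESeq2, with 4 at an unadjusted p under 0.05 (138 of all 472 genes tested). In the difference of differences 0 of 29 were called by edgeR or DESeq2, and 1 was called without JTE 1h replicate 1 (37 over all genes). Of the 29, 3 had an unadjusted p under 0.05 (166 of all 2175 genes tested). 25 lay above 0, with a list median of 1.13 against 0.30 over all genes tested.

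Over the 18 libraries, the genes most like VIM among 911 with at least 100 reads, by Pearson r of log2(RPM + 1), were BOD1 (r = 0.824), ZNF239 (0.822) and MED10 (0.808). For TMSB4X they were RAB28 (r = 0.618), PARK7 (0.594) and NAP1L4 (0.554). VIM and TMSB4X had r = 0.273 with each other. These values describe 18 libraries that share conditions, library sets and depth.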

How the data were processed

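The deposited values are raw counts of readthrough reads per transcript and library, as whole numbers. Per the methods of the study, the authors trimmed adapters with cutadapt, mapped reads with minimap2 to GRCh38.p14, collapsed molecular identifiers, removed polyadenylated and multiply mapped reads, overlapped reads with the last exon of the transcript that ends farthest downstream, and counted those whose 3′ end lay past the boundary. No normalization was applied to the counts and replicates were not pooled. Transcripts were matched to GENCODE 44 by identifier (12704 of 13051). Library totals are those the study lists.

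Genes with at least 30 reads over the libraries of a comparison were tested with edgeR 4.0.16 (glmQLFit, glmQLFTest, R 4.3.3) on the counts of its 6 libraries, with library reads as library size. Adjusted p-values (Benjamini-Hochberg, over all genes tested) under 0.05 were called. As an alternative, DESeq2 1.42.0 was run with its own size factors. Each tool was first run on counts simulated for IM 18h against CTRLim with a fixed dispersion. That run does not show how the tools behave at the spread of the other comparisons. Ratios were compared by exact permutation tests. Standard errors were derived from the quasi-likelihood F, and intervals of fold changes are 1.96 SE wide on each side. Replicate numbers pair the samples in JTE 1h against KCl 45min (correlation of deviations 0.204 to 0.284 in all 3 pairs). They do so only in part in KCl 45min against CTRL (0.0458 to 0.297) and JTE 1h against CTRL (-0.0127 to 0.248), with replicate 2 the lowest. In the other comparisons the highest value was 0.097, in IM 18h against CTRLim.

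The 7 genes, the lists and the tests were chosen with earlier results of these data known. The genes named were the 7 members, up to 6 called list genes without overlap per comparison, and the 3 genes most like VIM and TMSB4X. EZR and ARPC4 were named after their values were seen. Alternatives changed scaling, minimum of reads, test, libraries and control. Gene body reads were not analysed here. Tables and figures were made in Python 3.11.15 with matplotlib 3.10.9, numpy 2.4.6, scipy 1.17.1 and pandas 2.3.3.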

Additional observations from a re-analysis of the deposited data

How the results depend on the processing

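The fall of VIM in IM 18h was kept against CTRLim under all 16 alternatives that tested it (log2 fold change -2.99 to -2.15, highest adjusted p 0.0143) and against IM 1h under all 14 (-2.71 to -2.14, highest adjusted p 0.00843). The calls of TMSB4X and PFN1 depended on the setting, and the cause was not tested. TUBB was the list gene called in KCl 45min against CTRL with TMM scaling, with the total of readthrough reads and with DESeq2. With TMM scaling the log2 fold change of TMSB4X was 0.37 in KCl 45min against CTRL, -0.30 in JTE 1h against CTRL, -0.77 in JTE 1h against KCl 45min and 0.20 in IM 18h against IM 1h, and VIM in JTE 1h against CTRL was -0.24. With the total of readthrough reads as library size these were 0.39, -0.25, -0.65, 0.15 and -0.19, and with DESeq2 they were 0.29, -0.27, -0.60, 0.23 and -0.29 (written in the same order), all turned in sign and none called. In JTE 1h against KCl 45min the 1 member called became 0 with TMM scaling, with the total of readthrough reads, with a minimum of 10 reads or of 1 read and with DESeq2, and 2 with all 18 libraries in one fit. In IM 1h against CTRLim the 1 called became 0 with DESeq2, with all 18 libraries in one fit, with all 6 untreated libraries as control and with CTRL in place of CTRLim, and VIM there turned to 0.25 and 1.42 with these last controls. With all 6 untreated libraries, 1 member was called in KCl 45min (VIM, log2 fold change -3.17, adjusted p 0.00533) and 1 in IM 18h, and in JTE 1h VIM and TMSB4X turned to -0.88 and -0.57. With CTRL in place of CTRLim, 0 were called in IM 18h. With DESeq2 the list genes called were 3 in JTE 1h against KCl 45min, 0 in IM 18h against CTRLim and 0 in IM 18h against IM 1h. With TMM scaling they were 3 in JTE 1h against KCl 45min and 2 in IM 18h against IM 1h. Over all genes, DESeq2 called 47 in KCl 45min against CTRL (edgeR 95), 67 in JTE 1h against KCl 45min (353), 8 in IM 1h against CTRLim (15), 79 in IM 18h against CTRLim (196), 63 in IM 18h against IM 1h (315) and 20 in CTRLim against CTRL (50). A minimum of 10 reads gave 256 in KCl 45min against CTRL and 640 in JTE 1h against KCl 45min, CTRL in place of CTRLim gave 202 in IM 1h, and all 18 libraries in one fit gave 30 in JTE 1h against CTRL (edgeR 1), 113 in IM 18h against CTRLim and 112 in IM 18h against IM 1h.

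With the replicate block, 2 members were called in JTE 1h against KCl 45min (VIM added), and the block changed no other call of a member. Replicate numbers paired the samples only in part in KCl 45min against CTRL and in JTE 1h against CTRL. In the comparisons with CTRLim or imatinib libraries no such pairing was seen. Several of these libraries differed by about as much as sampling noise alone gives, so a pairing could go unseen there. Whether these samples are paired is therefore not shown.

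Leaving out each library in turn, the members called ranged from 0 to 1 in JTE 1h against KCl 45min, in IM 1h against CTRLim, in CTRLim against CTRL and in the difference of differences. PFN1 in JTE 1h against KCl 45min was called without JTE 1h replicate 1 and lost without JTE 1h replicate 2 (log2 fold change 1.955) or KCl 45min replicate 1, 2 or 3 (1.53, 1.63 and 2.61), where the log2 fold changes stayed near or above the 1.77 of all libraries, and had too few reads without JTE 1h replicate 3. In CTRLim against CTRL, VIM passed without CTRL replicate 3 (2.29, adjusted p 0.00663) and TMSB4X passed without CTRLim replicate 1 (1.60, adjusted p 0.0398). The list genes called ranged from 0 to 4 in JTE 1h against CTRL (4 without JTE 1h replicate 1), 3 to 12 in JTE 1h against KCl 45min, 0 to 3 in IM 18h against CTRLim, 2 to 4 in IM 18h against IM 1h (2 without any 1 IM 1h library or IM 18h replicate 3) and 0 to 1 in the difference of differences. Signs turned within the ranges of TMSB4X in KCl 45min against CTRL (-0.35 to 0.061), VIM and TMSB4X in JTE 1h against CTRL (-0.48 to 0.78 and -0.023 to 0.49), TMSB4X in IM 18h against IM 1h (-0.32 to 0.13) and VIM in the difference of differences (-0.13 to 1.15). They also turned for the log2 ratio of TMSB10 to TMSB4X, which mostly follows TMSB4X, in KCl 45min against CTRL (-0.70 to 0.46), JTE 1h against CTRL (-0.057 to 1.17) and IM 1h against CTRLim (-1.02 to 0.20), and of VIM to TMSB4X in JTE 1h against CTRL (-0.78 to 1.64). Pseudocounts of 0.1 and 1 turned no ratio. Summing CTRLim replicates 2 and 3 (added after the data were seen, like the list counts under these settings) changed no call of a member. Depth limits TMSB10, CFL1 and, in most comparisons, PFN1.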
